A study of Homo sapiens with 18 samples.

Results

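Cytosolic ribosomal proteins were followed through their messenger RNAs in 2 human breast cancer cell lines that carry G0S2 under doxycycline control. The genes were taken by symbol: RPL or RPS followed by digits and at most 1 letter, plus RPLP0, RPLP1, RPLP2 and RPSA. This gave 79 genes in all, 47 of the large subunit and 32 of the small subunit. The MDA-MB-231 table listed all 79 among its 14308 genes, and the T47D table listed 78 among its 14768 genes, RPL36A being the one not listed there. RNA from T47D, an estrogen receptor positive line, and from MDA-MB-231, an estrogen receptor negative line, was sequenced in 3 groups per line: controls at day 0, day 3 and day 15 of doxycycline (0.5 ug/ml). Each of the 6 groups has 3 libraries. Cells of every group are labelled as part of the G0S2 system, and doxycycline was not given to cells lacking it in the samples analysed here, so G0S2, the drug and time in culture cannot be told apart in any comparison. The series' design text instead names a comparison of Aza resistant with parental lines, run as biological triplicates. That description does not match the sample labels, which were followed here. Whether these libraries are separate cultures is therefore not certain, and p-values then measure only the spread between libraries, which may be technical. The promoter of the construct and the number of clones are not given.

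The cytosolic ribosome is built from 2 subunits: the small one binds the messenger RNA and reads its codons, and the large one joins amino acids and lets the growing chain out through a tunnel. Most of these proteins occur once in each ribosome, and cells make their mRNAs in large amounts. Many of these mRNAs begin with a cytosine followed by an unbroken run of pyrimidines, the terminal oligopyrimidine (TOP) motif, through which the mTOR pathway and the RNA-binding protein LARP1 set how strongly they are translated.

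The start regions of 9 members on which the results below turn show this motif, or no match to it at the annotated start. Each line gives the 15 bases before and the 15 bases from an annotated transcription start (RefSeq, GRCh38.p14), 5′ to 3′ on the strand of the gene, and capitals mark a C at the start with at least 4 pyrimidines after it, as far as the run goes inside the window.
RPS12 (chr6:132814554-132814583, plus strand): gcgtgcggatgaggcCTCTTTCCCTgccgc
RPL31 (chr2:101002274-101002303, plus strand): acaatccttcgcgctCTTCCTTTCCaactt
RPL22 (chr1:6199581-6199610, minus strand): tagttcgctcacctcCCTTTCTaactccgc
RPS27L (chr15:63157463-63157492, minus strand): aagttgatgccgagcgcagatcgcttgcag
RPS26 (chr12:56041903-56041932, plus strand): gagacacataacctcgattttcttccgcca
RPS25 (chr11:119018329-119018358, minus strand): tctgagcagcgcttcCTTTTTgtccgacat
RPL26 (chr17:8383179-8383208, minus strand): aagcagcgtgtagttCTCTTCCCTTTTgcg
RPS23 (chr5:82278340-82278369, minus strand): tcctgcggtgcttctCTCTTTCgctcaggc
RPS4X (chrX:72277234-72277263, minus strand): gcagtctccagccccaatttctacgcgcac
RPS12, RPL31 and RPL22 fell in T47D at day 15 and carry the motif at this start, whereas RPS27L, which also fell, and RPS26, which rose, do not. RPS25, RPL26 and RPS23 rose in MDA-MB-231 at day 15 and carry it, and RPS4X, which rose as well, does not. Here and below, absence means no match at the exact annotated base. The RPS26 window has a pyrimidine run shortly after that base, so absence does not show that a member's mRNA lacks the motif.

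The motif was common among the members. It stood at 1 or more listed starts of 46 of the 63 members that the table of starts held (73%), against 5.14% of all 27305 genes in that table and 6.82% of the other genes listed in T47D or 6.92% of those listed in MDA-MB-231. Large subunit genes carried it in 28 of 38 cases and small subunit genes in 18 of 25. In the windows of 250 bases before to 50 after the start, the letters CCGGAA, read on either strand, were found at 52.6% of the 78 member starts and at 17.2% of the 35116 starts of all genes. The letters TATAAA, read on either strand, were found at 6.41% of member starts and at 11.5% of all starts. These are counts of letters, not of bound factors. In the GENCODE 29 annotation (GRCh38) the members lie on 21 chromosomes, 12 of them on chromosome 19, their coding length has a median of 456 bases (75 for RPL41 to 1281 for RPL4), and 28 of the 79 hold 60 small nucleolar RNA genes between them.

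G0S2 itself followed the labels in every library. T47D had 0.277 to 0.900 CPM (read counts scaled to library size) in controls, 844 to 883 at day 3 and 736 to 993 at day 15, and MDA-MB-231 had 25.02 to 25.48, 1429 to 1506 and 1103 to 1294. Depth was 40.1 to 51.0 M reads in T47D and 37.0 to 52.4 M in MDA-MB-231. All 6 T47D identity markers (ESR1, PGR, GATA3, FOXA1, KRT19, TFF1) were listed in T47D, with 4476 to 4715 CPM in sum, and 2 of them in MDA-MB-231, with 149.7 to 169.7 CPM. All 6 MDA-MB-231 markers (VIM, CD44, AXL, CAV1, ZEB1, SPARC) were listed in that line, with 6021 to 6324 CPM, and CD44 alone in T47D, with 6.63 to 11.8 CPM. One library stood apart: T47D day 15 replicate 2 differed from replicates 1 and 3 by 14.5 and 23.6 times the counting variance expected (chi-square over degrees of freedom), against 1.74 to 5.92 for the other 16 pairs of replicates. Among its 77 members with a mean log2 CPM of at least 1, 11 lay more than 0.2 (log2) above and 17 more than 0.2 below the mean of the other 2 libraries, from -1.22 for RPL41 to 0.60 for RPL10. For T47D at day 15, counts are therefore given with and without it, and so is each named member whose call against control changes.

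Both subunits took a steady share of the reads through the doxycycline course. In T47D the large subunit genes held 2.75% ± 0.0356 of listed reads in controls, 2.75% ± 0.00935 at day 3 and 2.76% ± 0.0440 at day 15 (SD, n = 3 each), and the small subunit genes 1.57% ± 0.0201, 1.56% ± 0.0138 and 1.56% ± 0.0247. In MDA-MB-231 the large subunit genes held 2.06% ± 0.0344, 2.06% ± 0.00898 and 2.10% ± 0.0243, and the small subunit genes 1.27% ± 0.0252, 1.27% ± 0.0135 and 1.30% ± 0.0310. The 3 groups of each line overlapped in their library values for both subunits, except that MDA-MB-231 large subunit shares at day 15 (2.08% to 2.13%) lay above those at day 3 (2.05% to 2.07%). These are shares of the RNA in the library: less RNA of all members per cell, and a smaller number of cells that contribute it, cannot be told apart here, nor would a change of all RNA in step be seen.

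**Figure D1:**
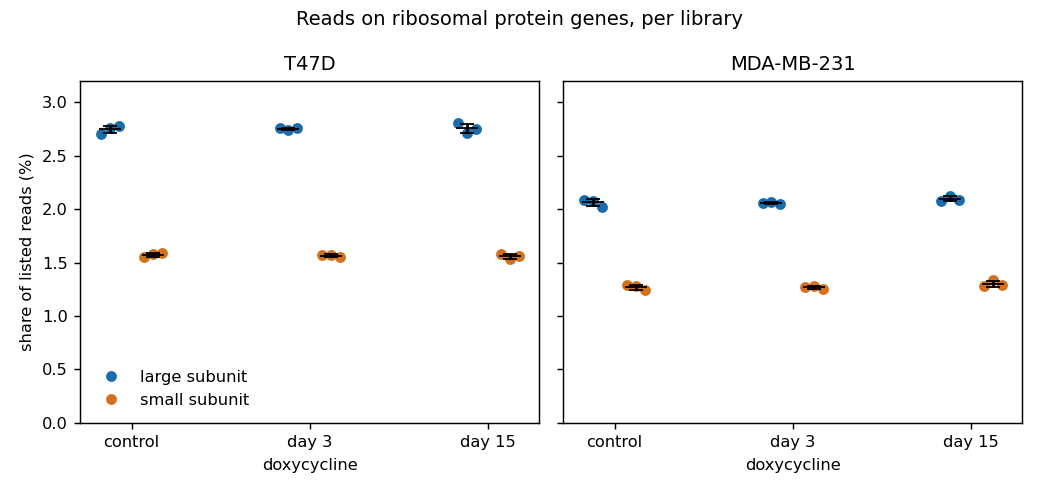
Share of listed reads (%, vertical axis from 0) on large and small subunit genes in each of the 18 libraries, by line and time on doxycycline; bars give the mean and SD of 3 libraries. Large subunit shares lie between 2.71% and 2.80% in T47D and between 2.02% and 2.13% in MDA-MB-231.

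The balance between the subunits moved little. The log2 ratio of summed large to summed small subunit CPM in T47D was 0.805 ± 0.000236 in controls, 0.817 ± 0.0144 at day 3 and 0.822 ± 0.00578 at day 15 (SD, n = 3 each), so that the day 3 libraries (0.807 to 0.833) and the day 15 libraries (0.815 to 0.825) all lay above the controls (0.805 to 0.806), at day 15 by a mean of 0.017. In MDA-MB-231 it was 0.701 ± 0.00467, 0.698 ± 0.00906 and 0.691 ± 0.0176, and day 15 (0.670 to 0.701) overlapped the controls (0.697 to 0.706). A ratio over all members takes no p here. When the mean log2 CPM per gene replaces the sums, so that each gene counts alike, the T47D difference between day 15 and control was 0.0084, with overlapping libraries.

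Levels per kilobase of transcript placed the same genes at the top and the bottom in both lines. The 2 highest were RPS18, a protein of the small subunit head (2022 ± 32.2 CPM per kb in T47D controls and 1465 ± 44.7 in MDA-MB-231 controls), and RPL7A (1941 ± 26.9 and 1249 ± 16.5; SD, n = 3 each). The third place was held by RPL35A in T47D (1931 ± 16.5), within the spread of RPL7A there, and by RPL12 in MDA-MB-231 (1147 ± 9.80). In MDA-MB-231, RPL19 (1040 ± 15.3) and RPLP0 (1009 ± 34.0), which came next, did not differ beyond their spread. At the bottom stood RPL39, a small protein of the exit tunnel, at 20.3 ± 1.79 CPM per kb in T47D and 27.0 ± 0.935 in MDA-MB-231, the paralogs RPS27L (7.05 ± 0.140 and 8.32 ± 0.243) and RPL39L (3.87 ± 0.417 and 4.10 ± 0.386), and then RPL17 (3.61 ± 0.488 and 2.69 ± 0.633) and RPS10 (2.69 ± 0.320 and 2.59 ± 0.164). Annotated transcript lengths weigh on this order: RPS27L is annotated at 6434 bases and RPL37 at 7686, against 344 for RPS21, and reads may come from shorter forms.

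RPS10, RPL17 and RPL36A, the 3 lowest members in MDA-MB-231, overlap annotated readthrough genes. Of the exonic bases of RPS10, 77.0% are shared on the same strand with RPS10-NUDT3, of those of RPL17 91.0% with RPL17-C18orf32 and of those of RPL36A 77.6% with RPL36A-HNRNPH2. RPL36A had 0.745, 0.395 and 0.669 CPM in MDA-MB-231 controls, from as few as 14 reads in a library of the line. Their levels, and that of RPL26, which shares 59.0% of its exonic bases with the gene AC135178.2, are uncertain because how shared reads were handled is not given. Rows of ribosomal protein pseudogenes, 74 in T47D and 66 in MDA-MB-231, held 0.857% to 0.933% and 0.575% to 0.609% as many reads as the members.

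Set side by side, most members stood higher in T47D than in MDA-MB-231. The 2 tables were scaled apart, so no test was made. In controls, 54 of the 78 shared members had the higher CPM in T47D, with a median log2 difference of 0.31 for the large subunit and 0.18 for the small subunit. The widest gaps were RPL7 (1254 ± 18.1 CPM in T47D and 405 ± 4.54 in MDA-MB-231, a ratio of 3.09), RPS20 (713 ± 7.15 and 236 ± 2.94, a ratio of 3.02), RPL13 (898 ± 31.2 and 313 ± 18.6, a ratio of 2.87) and RPL35A (1068 ± 9.15 and 401 ± 3.95, a ratio of 2.66; SD, n = 3 each). In the other direction, the 3 shared members on chromosome X were all lower in T47D: RPS4X (569 ± 10.8 and 1161 ± 2.58, a ratio of 0.490), RPL10 (377 ± 20.4 and 644 ± 32.2, a ratio of 0.585) and RPL39 (8.15 ± 0.716 and 10.8 ± 0.375, a ratio of 0.752). Grouping by chromosome was done after these values were seen. On chromosome 8 all 4 members were higher in T47D, by 1.61 to 3.09 times, on chromosome 16 all 3, by 1.69 to 2.87 times, on chromosome 17 all 6, by 1.21 to 1.43 times, and on chromosome 19 only 2 of 12, with ratios of 0.670 to 1.10. DNA copy number was not measured and its part in these levels was not tested.

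**Figure D2:**
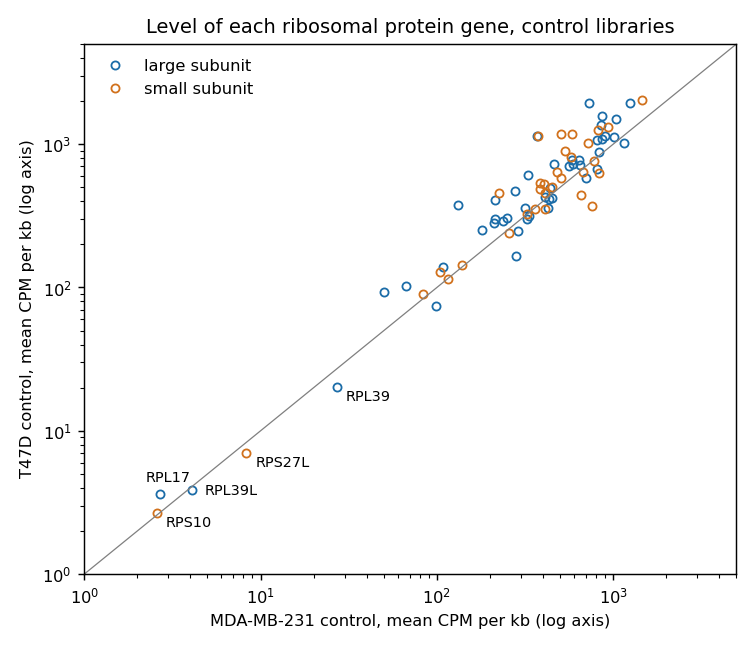
Mean CPM per kilobase of transcript of each of the 78 shared members in control libraries (n = 3 each), T47D on the vertical and MDA-MB-231 on the horizontal axis, both logarithmic, with the line of equal level. Most members lie above the line, and the 5 labelled genes at the lower left (RPL39, RPS27L, RPL39L, RPL17, RPS10) lie below 30 CPM per kb.

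At day 3 no member passed the test in either line. In T47D 0 of 78 members were called at an adjusted p under 0.05, where 1.88% of all listed genes were, and in MDA-MB-231 0 of 79, where 1.77% were (limma with Benjamini-Hochberg adjustment over all listed genes, here and below). At an unadjusted p under 0.05 there were 2 members in T47D, where 10.1% of all genes passed that limit. In MDA-MB-231 there were 4, where 13.6% did. With voom weights on the recovered reads there were 0 and 0, where 275 and 268 of all genes were called. The largest differences belonged to members with few counted reads. In T47D they were RPS10 (log2 fold -0.18, SE 0.217) and RPL17 (0.17, SE 0.133), followed by the better counted RPS26 (0.11, SE 0.0345, adjusted p = 0.180). In MDA-MB-231 they were RPL36A (-0.59, SE 0.280), RPL39L (-0.21, SE 0.130) and RPL17 (-0.20, SE 0.172). Median folds of large and small subunit genes were -0.00079 and -0.014 in T47D, and -0.0085 and 0.0017 in MDA-MB-231, where the medians over all genes were -0.0026 and 0.0016.

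At day 15 in T47D, 7 members fell and 1 rose. Against a background of 11.2% of all genes called and 6.23% called lower, the 8 calls are 10.26% of the 78 members, a share near that of all genes. The genes that fell were RPS12, RPS27L and RPS21 of the small subunit and RPL31, RPL22, RPL34 and RPL4 of the large one, and RPS26 rose. Every change was small: the 8 folds lay between -0.20 and 0.15 on the log2 scale. The median fold was -0.027 for large and -0.035 for small subunit genes, beside 0.0028 for all genes.

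RPS12, a small subunit protein whose fly counterpart takes part in cell competition, had 273, 279 and 273 CPM at day 15, against 312, 314 and 323 in controls. The 2 groups did not overlap, with 0.869 times the control level (log2 fold -0.20, SE 0.0357, adjusted p = 0.00202). RPS27L, a paralog of RPS27 that p53 switches on in human cells, had 38.4, 38.8 and 41.3 CPM at day 15, against 46.0, 44.3 and 45.7 in controls (log2 fold -0.20, SE 0.0429, adjusted p = 0.00763). Again all day 15 libraries lay below all controls. RPS12 and RPS27L were the 2 of the 8 called members that passed whichever of the 6 libraries was left out.

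RPL31, which sits at the rim of the exit tunnel, had 267, 239.7 and 267 CPM at day 15, against 290.2, 293 and 305 in controls (log2 fold -0.20, SE 0.0442, adjusted p = 0.00918). RPL22, an RNA-binding protein that can also act outside the ribosome, had 192, 178 and 199 CPM at day 15, against 212, 219 and 211 in controls (log2 fold -0.17, SE 0.0412, adjusted p = 0.0148). In both genes the groups did not overlap, and replicate 2 was the lowest of the day 15 libraries. For RPL22 the day 3 libraries (205, 202 and 192 CPM) also lay below the controls, without passing the test (adjusted p = 0.415). RPS26, which touches the mRNA as it leaves the small subunit and is mutated in Diamond-Blackfan anemia, had 185, 178 and 181 CPM at day 15, against 159, 161 and 169.8 in controls, with no overlap (1.11 times, log2 fold 0.15, SE 0.0345, adjusted p = 0.0121).

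RPS21 (log2 fold -0.16, SE 0.0491), RPL34 (-0.12, SE 0.0338) and RPL4 (-0.08, SE 0.0239), the last a protein that lines the exit tunnel, passed at adjusted p = 0.0476, 0.0364 and 0.0438. RPL4 had 1227, 1234 and 1216 CPM at day 15, against 1283, 1306 and 1301 in controls. These 3 passed in 1 of the 6 omissions each. Across all members 1 lay higher and 13 lower with no overlap between day 15 and control libraries, which is 17.95% of 78, where 26.3% of all genes had groups that did not overlap.

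The library that stood apart set how many members passed. Without T47D day 15 replicate 2, 35 members were called, 12 higher and 23 lower, among them all 8 of the calls made with it. They are 44.87% of the 78 members, and the share of all genes called was also larger, 25.1% beside 11.2% with all libraries. The median fold was then 0.0039 for large and -0.030 for small subunit genes. Of the 46 large subunit genes 7 rose and 10 fell (36.96%), and of the 32 small subunit genes 5 rose and 13 fell (56.25%). RPL41, whose protein is the shortest of the ribosome, had 209, 88.8 and 206 CPM at day 15, against 187, 198 and 186 in controls, a log2 fold of -0.28 (SE 0.323, adjusted p = 0.667) with all libraries and 0.12 (SE 0.0306, adjusted p = 0.00296) without replicate 2. RPL10, which joins the large subunit late in its assembly, ran the other way, with 323, 486 and 318 CPM at day 15, against 363, 367 and 400.2 in controls, and a log2 fold of -0.23 (SE 0.0349, adjusted p = 6.79e-06) without replicate 2. Without it the largest falls were those of RPS29 (-0.30, SE 0.0380), RPL10, RPS21 (-0.23), RPS19 (-0.23) and RPLP1 (-0.21), and the largest rises those of RPL24 (0.18, SE 0.0255), RPS26 (0.16), RPS27 (0.15), RPL35 (0.13) and RPL12 (0.12). RPL38 (0.0915, adjusted p = 0.00947) and RPL6 (0.102, adjusted p = 0.000815) also rose without it. RPS28 (-0.182, adjusted p = 0.000318), RPL13 (-0.0851, adjusted p = 0.0183) and RPS3 (-0.0635, adjusted p = 0.0438) fell. Of the members named in this paragraph, RPS21 and RPS26 also passed with all libraries, and the others did not. Leaving out control replicate 1, 2 or 3 or day 15 replicate 1 instead gave 4, 3, 4 and 4 calls. All genes called then numbered 1006, 930, 1137 and 999, beside 1659 with all libraries.

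**Figure D3:**
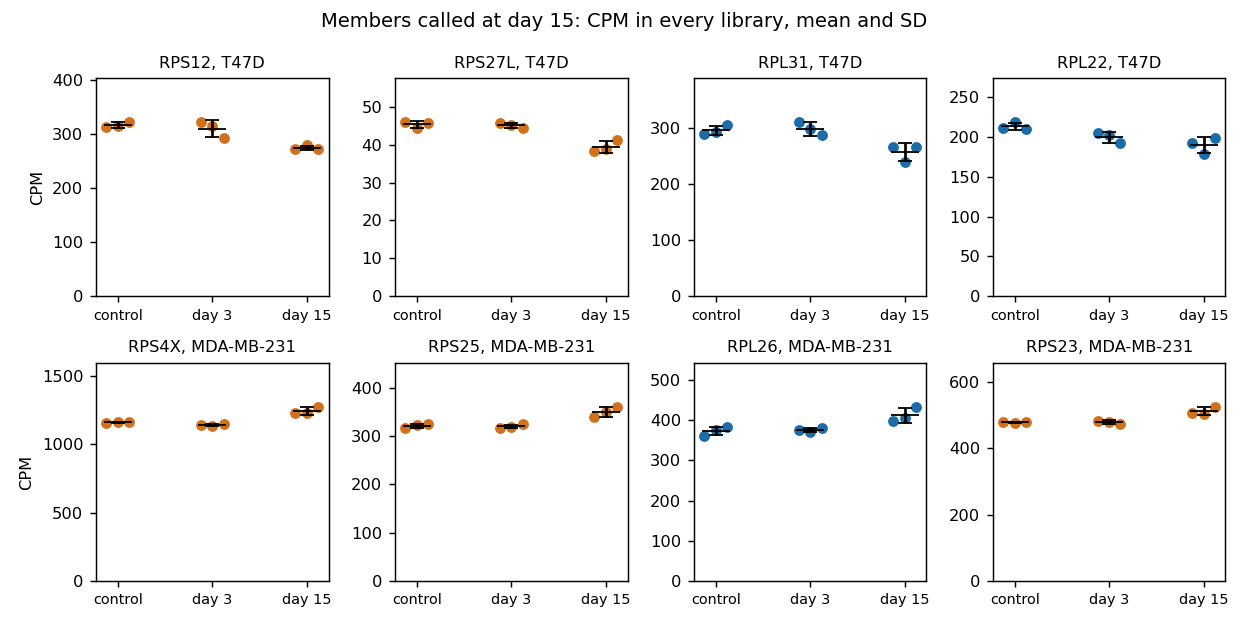
CPM (vertical axes from 0) of 4 members that fell in T47D at day 15 (top row) and 4 that rose in MDA-MB-231 at day 15 (bottom row), 1 point per library, with the mean and SD of 3 libraries per group. In each panel the 3 day 15 libraries lie on 1 side of the 3 controls, by amounts that are small beside the level itself.

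At day 15 in MDA-MB-231, 18 members rose and none of the 79 fell by the test, against a background of 8.20% of all genes called and 3.42% called higher. The 18 were 10 of 47 large subunit genes and 8 of 32 small subunit genes, 22.78% of the members. At an unadjusted p under 0.05, which 23.7% of all genes passed in either direction, 1 member was lower. With voom weights 20 members rose and 0 fell, where 1098 of all genes were called. By size the calls were RPL26 (log2 fold 0.14), RPL41 (0.14), RPS25 (0.13), RPS27 (0.11), RPS26 (0.11), RPS4X (0.10), RPL21, RPS23 and RPL24 (0.10 each), RPL23 (0.09), RPL7 (0.09) and RPL37 (0.08), and the other 6 lay between 0.067 and 0.083. The median fold was 0.031 for large and 0.029 for small subunit genes, beside 0.0010 for all genes.

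RPL26, which binds the p53 mRNA in human cells, had 398, 406 and 434 CPM at day 15, against 362, 377 and 383 in controls (1.10 times, SE 0.0278 on the log2 scale, adjusted p = 0.00196). RPS25, a protein that several viral internal ribosome entry sites need, had 340.04, 350.3 and 360.5 CPM at day 15, against 317, 322 and 325 in controls (log2 fold SE 0.0243, adjusted p = 0.00169). RPS4X, a small subunit protein encoded on the X chromosome, had 1229, 1228 and 1276 CPM at day 15, against 1159, 1164 and 1160.5 in controls (1.07 times, log2 fold SE 0.0193, adjusted p = 0.00163). In these 3 genes the groups did not overlap and replicate 3 was the highest of the day 15 libraries. They were the 3 of the 18 that passed whichever library was left out.

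RPS23, which holds part of the decoding centre, had 506, 504 and 526 CPM at day 15, against 479.8, 478 and 479.4 in controls (log2 fold 0.10, SE 0.0220, adjusted p = 0.00729). RPL41 had 108, 111 and 114 CPM, against 94.7, 106 and 101 (adjusted p = 0.0171). Across the members, 29 lay higher and 0 lower with no overlap between day 15 and control, 36.7% of 79, where 24.3% of all genes had groups that did not overlap. Leaving out control replicate 1 or 2 left 5 rises each, where 471 and 457 of all genes were called, beside 1173 with all libraries. Leaving out day 15 replicate 3 left 7, where 721 genes were called. Leaving out day 15 replicate 2 gave 20 rises and 6 falls, where 13.3% of all genes were called. Without the pooled trend and the robust weighting of the variances 0 members were called, where 232 genes were.

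**Figure D4:**
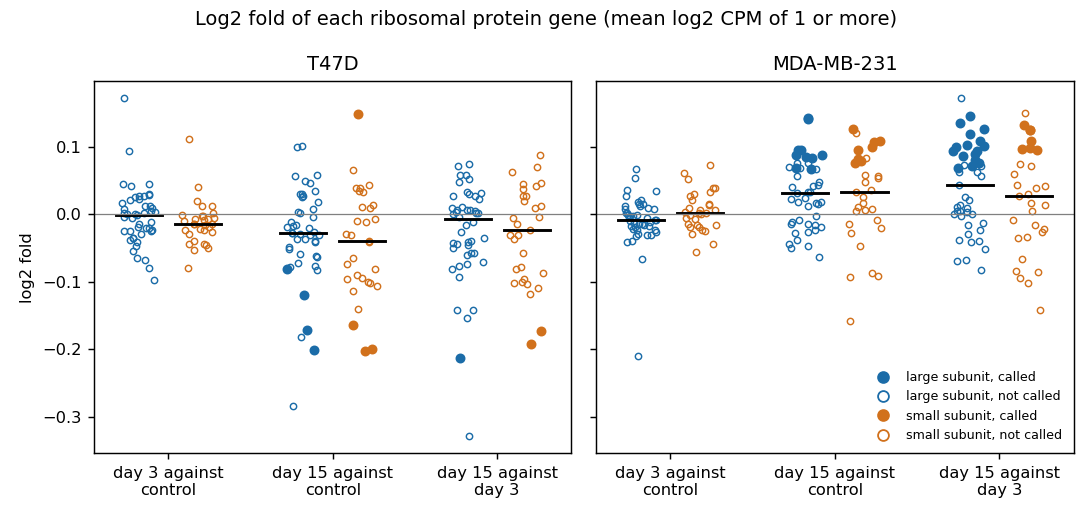
Log2 fold of each member with a mean log2 CPM of at least 1 (77 in T47D, 76 in MDA-MB-231) in the 3 comparisons of each line; filled points passed at an adjusted p under 0.05 and bars give the median of each subunit. Filled points lie at or below -0.08 in T47D except RPS26, and above 0 in MDA-MB-231, and the medians stay within 0.06 of 0.

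Day 15 was also set against day 3 within each line, a comparison that shares its day 15 libraries with the one above. In T47D 3 members fell and 0 rose, where 5.58% of all genes were called and 3.35% were lower: RPL31 (log2 fold -0.21, SE 0.0442, adjusted p = 0.0104), RPS27L (-0.19, SE 0.0429, adjusted p = 0.0167) and RPS12 (-0.17, SE 0.0357, adjusted p = 0.0100). By voom no member rose either, where 815 of all genes were called in either direction. At an unadjusted p under 0.05, 1 rose, where 1222 of all 14768 genes were higher. Without day 15 replicate 2 there were 28 calls, 12 higher and 16 lower, where 17.6% of all genes were called. There was 1 call without day 15 replicate 1 and 0 without day 3 replicate 1 or 2. All genes called then numbered 478, 409 and 403, beside 824 with all libraries. RPL41 (-0.33, SE 0.323) and RPS10 (0.26, SE 0.217) had the largest differences besides RPL31 and did not pass. In MDA-MB-231 23 members rose, 16 large and 7 small subunit genes, and 0 fell, where 5.33% of all genes were called and 2.47% were higher. The voom count was the same, where 662 of all genes were called. At an unadjusted p under 0.05, 2 members lay lower, where 1577 of all 14308 genes did.

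The largest called rises in MDA-MB-231 between day 15 and day 3 were RPL41 (log2 fold 0.15), RPL26 (0.13), RPS25 (0.13), RPL24 (0.13), RPS4X (0.12), RPS27 (0.12), RPL21 (0.12), RPS6 (0.11), RPL12 (0.11), RPL37 (0.10), RPL6 (0.10) and RPL35 (0.10), and the other 11 lay between 0.068 and 0.098. RPS6, the subunit protein that S6 kinase phosphorylates, had 819, 826 and 857 CPM at day 15, against 763, 778 and 778 at day 3, with no overlap (SE 0.0210, adjusted p = 0.00352). RPL36A (0.43, SE 0.280), RPL17 (0.41, SE 0.172) and RPL39L (0.17, SE 0.130) had the largest differences of all and did not pass. RPS25 and RPS4X were the 2 of the 23 that passed whichever library was left out. Leaving out day 15 replicate 1 or 3 gave 15 and 9 calls, where 308 and 319 of all genes were called, beside 763 with all libraries. Leaving out day 3 replicate 1, 2 or 3 gave 2, 4 and 15, where 124, 143 and 585 genes were called. Leaving out day 15 replicate 2 gave 24 rises and 5 falls, where 11.6% of all genes were called.

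RPL5 and RPL11, which with the 5S rRNA form the particle that binds MDM2, did not pass in T47D at day 15 (log2 folds 0.0032 and -0.028, SE 0.0369 and 0.0526), and in MDA-MB-231 they were 0.057 and 0.067 at day 15 against control (adjusted p = 0.0761 and 0.0731) and rose against day 3 (0.07 and 0.08, adjusted p = 0.0435 and 0.0438). RPL5 had 734, 754 and 751 CPM at day 15 in MDA-MB-231, against 711, 722 and 719.7 in controls, with no overlap. RPL38, which shapes the translation of Hox mRNAs in mice, also rose against day 3 there (0.09, adjusted p = 0.0344). Of the stalk, which brings elongation factors to the ribosome, RPLP0, RPLP1 and RPLP2 had folds of -0.039, -0.072 and -0.0043 in T47D and -0.047, -0.014 and -0.012 in MDA-MB-231 at day 15, and none of the 3 passed in either line with all libraries. Without day 15 replicate 2 all 3 fell in T47D (-0.08, -0.21 and -0.12).

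RPL3, next to the peptidyl transferase centre, and RPL10A, of the L1 stalk, had folds of -0.052 and 0.0077 in T47D and -0.026 and 0.031 in MDA-MB-231 at day 15 and did not pass with all libraries. Without T47D day 15 replicate 2, RPL3 fell there (log2 fold -0.087, adjusted p = 0.00642). RPS19, mutated in Diamond-Blackfan anemia, was at -0.11 (SE 0.0857) in T47D and -0.09 (SE 0.0807) in MDA-MB-231, and it is among the falls in T47D without that library, given above. RPSA, also known as the laminin receptor, had 511, 644 and 499 CPM at day 15 in T47D, against 522, 528 and 549 in controls, so that 1 library lay above and 2 lay below every control. Without the high library, replicate 2, it fell (log2 fold -0.078, adjusted p = 0.0352). RPS27A, which is made as a fusion with ubiquitin, had 419, 445 and 423 CPM at day 15 in T47D, against 459, 464 and 457 in controls. Its groups did not overlap, with an adjusted p of 0.0965 with all libraries and a fall (log2 fold -0.13, adjusted p = 0.00131) without replicate 2. RPL39 and its paralog RPL39L, whose product takes the place of RPL39 in testis ribosomes, had 7.16 ± 0.405 and 2.82 ± 0.0320 CPM at day 15 in T47D, against 8.15 ± 0.716 and 2.93 ± 0.315 in controls (SD, n = 3 each), and neither passed. RPS28 had the lowest fold of the well measured members at day 15 in MDA-MB-231 (-0.16, SE 0.0981) and did not pass.

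The day 15 changes of the 2 lines were set against each other in 1 fit over all 18 libraries, as the change in T47D minus the change in MDA-MB-231. Of 78 members 6 differed, all lower in T47D, where 9.44% of 12666 shared genes were called in either direction and 5.37% were lower. The members' share lay below the first of these and above the second. Values are given for 5 of the 6 members. RPS12 was at -0.20 in T47D and 0.06 in MDA-MB-231 (difference -0.26, SE 0.0777, adjusted p = 0.0423), RPS27L at -0.20 and 0.03 (-0.23, SE 0.0590, adjusted p = 0.0172) and RPL22 at -0.17 and 0.03 (-0.20, SE 0.0525, adjusted p = 0.0159). RPS20, a protein of the small subunit head, was at -0.07 and 0.08 (-0.16, SE 0.0395, adjusted p = 0.0137) and RPL4 at -0.08 and 0.04 (-0.12, SE 0.0267, adjusted p = 0.00431).

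RPL4 and RPS20 passed in all 12 omissions. RPS20 had 683, 674 and 675 CPM at day 15, against 709.9, 721 and 708 in controls in T47D, and 244, 265 and 242 CPM at day 15, against 239, 234 and 234 in controls in MDA-MB-231. Its groups did not overlap in either line, in opposite directions, although neither line's own change passed with all libraries (adjusted p = 0.0874 in T47D and 0.0687 in MDA-MB-231). Without T47D day 15 replicate 2 its fall in T47D passed (log2 fold -0.071, adjusted p = 0.0228). The count of members was 2 without MDA-MB-231 control replicate 1, 3 without T47D control replicate 2, 12 without T47D day 15 replicate 3 and 7 without T47D day 15 replicate 2. All shared genes called then numbered 860, 892, 1899 and 1358, beside 1196 with all libraries. At day 3 the count was 0 of 78, where 2.46% of shared genes were called, and at an unadjusted p under 0.05, which 11.7% of them passed, it was 2, both lower in T47D.

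**Figure D5:**
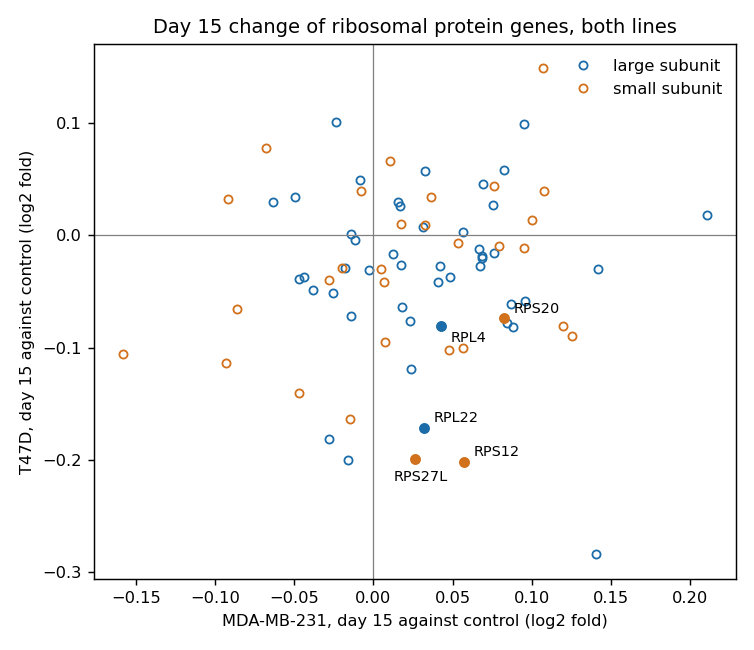
Log2 fold at day 15 against control for 77 of the 78 shared members, T47D on the vertical and MDA-MB-231 on the horizontal axis; open circles did not differ between the lines by the test and filled, labelled circles did. The 5 filled circles all lie at the lower right, below 0 in T47D and above 0 in MDA-MB-231.

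Over the 78 shared members, 35 had a positive fold in MDA-MB-231 and a negative one in T47D, 8 the reverse, 18 were positive and 17 negative in both. Pearson's r between the lines' day 15 folds was 0.0493 and Spearman's rho 0.0657 across these genes, which share the libraries of each line and are not independent replicates. Shorter coding sequences went with lower folds in T47D (rho = 0.376 across 78 genes with all libraries, 0.132 without day 15 replicate 2) and not in MDA-MB-231 (rho = -0.0156 across 79 genes). Members with the TOP motif had a median day 15 fold of -0.030 in T47D (45 genes) and 0.020 in MDA-MB-231 (46 genes), and members with a listed start without it -0.017 and 0.031 (17 genes each). Members that host small nucleolar RNAs had medians of -0.019 and 0.035 (28 genes), and those that host none -0.029 and 0.026 (50 and 51 genes). Without day 15 replicate 2 the T47D medians were -0.023 with the motif, -0.0017 without it, -0.020 for hosts and -0.0020 for the others. All other short coding genes (under 600 bases) had medians of -0.0069 in T47D and -7.2e-05 in MDA-MB-231 at day 15.

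Other genes of the translation machinery were read from lists. Of 22 non-ribosomal TOP genes, 3 fell and 0 rose in T47D at day 15, 13.64% of the list. Of all genes 11.2% were called in either direction and 6.23% were lower. The 3 were SNHG5 (log2 fold -0.23, adjusted p = 0.00488), a host of small nucleolar RNAs, EEF1B2 (-0.16, adjusted p = 0.0479), a subunit of the factor that recharges elongation factor 1A, and EIF3H (-0.09, adjusted p = 0.0476), an initiation factor subunit. In MDA-MB-231 3 of the 22 (13.64%) rose and 0 fell, where 8.20% of all genes were called and 3.42% were higher: TPT1 (0.12, adjusted p = 0.00121), BTF3 (0.12, adjusted p = 0.0198) and NACA (0.08, adjusted p = 0.0217), the last 2 being the subunits of the complex that meets new chains at the tunnel exit. The list's median was -0.026 in T47D and 0.045 in MDA-MB-231. Without T47D day 15 replicate 2, 6 of the 22 fell in T47D, SNHG5, EEF1B2 and EIF3H among them, and 4 rose, with a median of 0.0022. These calls are 45.45% of the list, where 25.1% of all genes were called. At day 3 SNHG1 alone fell in MDA-MB-231 (-0.15, adjusted p = 0.00497), 4.545% of the list, where 1.77% of all genes were called. In T47D 0 of the 22 passed, where 1.88% of all genes did.

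Of 6 listed subunit proteins and paralogs under other symbols, 1 fell and 0 rose in T47D at day 15 against control. That is 16.67% of the list, where 11.2% of all genes were called. Without day 15 replicate 2, 1 rose and 1 fell, 33.33% beside 25.1% of all genes. The rise was that of RPL26L1, a paralog of RPL26 (0.17, adjusted p = 0.00342). RPL26L1 was also the 1 call of the list in MDA-MB-231 at day 15 against day 3, a rise (0.15, adjusted p = 0.0466). That is 16.67% of the list, where 5.33% of all genes were called. Of 12 factors that escort ribosomal proteins to the nucleolus or into pre-ribosomes, 0 passed in T47D with all libraries. At day 15 there 2 were lower at an unadjusted p under 0.05, which 24.1% of all genes passed. Without replicate 2 BCCIP and NVL rose and RPS19BP1 fell, 25% of the list beside 25.1% of all genes. In MDA-MB-231 at day 15 RRS1, which in yeast helps bring the 5S particle into the ribosome, rose (0.13, adjusted p = 0.0406) and GRWD1, which accompanies RPL3, fell (-0.17, adjusted p = 0.00313). These are 16.67% of the 12, where 8.20% of all genes were called. Against day 3, LTV1 (0.16), BCCIP (0.12) and PDCD2 (0.11), which serve RPS3, RPL23 and RPS2, rose in MDA-MB-231. They are 25% of the 12, where 5.33% of all genes were called and 2.47% were higher. Of 17 regulators, among them MTOR, LARP1 and MYC, 0 passed at day 15 against control in either line by limma with all libraries. At an unadjusted p under 0.05, 3 of them were higher and 2 lower in T47D, where 24.1% of all genes passed, and 1 was higher in MDA-MB-231, where 23.7% did. Without T47D day 15 replicate 2, EIF4E and ZBTB7A rose and MTOR, RPTOR and CDKN1A fell in T47D, 29.41% of the list beside 25.1% of all genes. CDKN1A, the p53 target that halts the cell cycle, rose at day 3 in MDA-MB-231 (0.22, adjusted p = 0.00762) and fell at day 15 against day 3 (-0.20, adjusted p = 0.0120).

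Measures of RNA composition stood as follows, and their part in the results was not tested. In T47D mitochondrial rRNA took 0.449% to 0.486% of reads in controls, 0.395% to 0.415% at day 3, below every control, and 0.403% to 0.466% at day 15, overlapping the controls. In MDA-MB-231 it took 0.378% to 0.425% in controls, 0.416% to 0.449% at day 3 and 0.382% to 0.429% at day 15. Of the replication-dependent histones, whose mRNAs lack a poly(A) tail, 4 of 29 (13.79%) rose and 0 fell in T47D at day 15. Of all 14768 genes 739 rose, and 11.2% were called in either direction. The histones' median fold was 0.12 (0.027 without replicate 2, with 4 rises, where 25.1% of all genes were called). In MDA-MB-231 at day 15, 0 of 22 histones passed, where 8.20% of all genes were called. Their median was -0.23, and 6 were lower at an unadjusted p under 0.05, which 23.7% of all genes passed in either direction.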

How the data were processed

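The deposited tables, 1 per line, hold log2 CPM, a unit recognised from their values. Per the submitters' processing notes, STAR, featureCounts and limma were used on GRCh38.p13, with no versions; strand use is not given in the sources used here. All deposited log2 values were whole reads within 0.1 once a pseudocount of 3 scaled reads was removed, and the authors' scaling factors equal TMM factors (0.992 to 1.012 in T47D, 0.991 to 1.004 in MDA-MB-231). Changes were fitted with limma 3.58.1 (R 4.3.3, statmod 1.5.0; trend and robust) on the log2 values as deposited, over the 9 libraries of a line, all listed genes tested, adjusted p under 0.05. The design had planned a count test only for whole counts. A fold is on the log2(CPM + pseudocount) scale and understates changes of rare transcripts. Fits were tested on simulated data. Lengths come from GENCODE 29, starts from RefSeq. For each gene a principal transcript was preferred, then one with a consensus coding sequence, then the longest coding sequence. Transcript support and then the shortest transcript decided only among equals. Named genes are the called members (up to 12 per comparison), the 3 largest changes, the extremes of level and a panel of known roles. Values of some genes are not reported here. Members and lists were chosen with earlier results of these data known. Python 3.11.15 with pandas 2.3.3 made the summaries. Alternatives were other scalings, pseudocounts, filters, variance models, a replicate block and omission of each library.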

Additional observations from a re-analysis of the deposited data

Results flagged for a closer look

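For 5 members named here the day 15 change differed between the 2 lines by a test of the difference itself (T47D change minus MDA-MB-231 change, limma, adjusted p under 0.05). The log2 differences were -0.2592 for RPS12, -0.2256 for RPS27L, -0.2037 for RPL22, -0.1565 for RPS20 and -0.1236 for RPL4. In all, 6 of 78 members differed, all lower in T47D, where 9.44% of shared genes differed in either direction and 5.37% were lower. RPS12 passed in 2 of the 12 omissions of a library, RPS27L in 9 and RPL22 in 10, and RPS20 and RPL4 in all 12.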

How the results depend on the processing

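The counts of called members rested on single libraries and on the variance model more than on the scaling. Omitting 1 library at a time gave 3 to 35 members in T47D and 5 to 26 in MDA-MB-231 at day 15 against control, 0 to 28 and 2 to 29 at day 15 against day 3, and 2 to 12 for the day 15 difference between the lines. The number of all genes called also changed with the library left out. At day 15 against control it ran from 930 to 3705 in T47D and from 457 to 1897 in MDA-MB-231. Without trend and robust weighting 2 and 1 members were called in T47D and 0 and 0 in MDA-MB-231 at day 15 against control and against day 3. All genes called then numbered 1216 and 549 in T47D and 232 and 32 in MDA-MB-231. Fits on only the 6 libraries compared called 3 members in T47D and 6 in MDA-MB-231 at day 15, and 4 in T47D at day 3. All genes called then numbered 996, 776 and 921, beside 1659, 1173 and 277 in the main fits. Upper-quartile factors left 5 calls in T47D at day 15 (1 higher, 4 lower), where 1621 of all genes were called. Library totals left 6 (2 higher, 4 lower), where 1629 were. Residuals of same-numbered libraries correlated between -0.185 and 0.0362 in T47D, and those of differently numbered libraries between -0.115 and 0.175. In MDA-MB-231 the ranges were -0.0156 to 0.103 and -0.119 to 0.0784. These values do not settle whether the numbers pair the samples. With the replicate as a block, T47D had 5 calls at day 15, where 1202 of all genes were called, beside 1659 without the block. MDA-MB-231 had 32 (27 higher, 5 lower) at day 15 against control, where 2273 genes were called, beside 1173. Against day 3 it had 36 (31 higher, 5 lower), where 1788 genes were called, beside 763. Medians ranged over omissions from -0.040 to 0.0039 (large subunit, T47D day 15), from -0.0081 to 0.041 (small subunit, MDA-MB-231 day 15) and from -0.036 to -0.011 (small subunit, T47D day 15 against day 3). The subunit balance by mean log2 CPM changed by -0.028 in MDA-MB-231 at day 3 and by 0.0084 in T47D at day 15. By the log2 ratio of sums the changes were -0.00315 and 0.0166. In MDA-MB-231 the day 3 libraries overlapped the controls by mean log2 CPM. That mean counts the few-read large subunit members RPL36A, RPL39L and RPL17 like any other. For counts other than these omissions the cause was not tested. The planned edgeR and DESeq2 count tests were not run, since the tables hold log2 values. Voom on the recovered reads, chosen after seeing the data, gave 8 calls in T47D and 20 in MDA-MB-231 at day 15. All genes called by voom then numbered 1650 and 1098. Few counted reads limit RPL36A, RPS10, RPL17 and RPL39L, of which the first 3 overlap readthrough genes.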

Other observations

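The day 15 libraries numbered 2 departed from their groups in a like way in both lines. Across 76 members, the deviation of T47D day 15 replicate 2 from the mean of replicates 1 and 3 correlated with that of MDA-MB-231 day 15 replicate 2 (Pearson's r = 0.604, Spearman's rho = 0.681). The points share 1 pair of libraries, and genes are not independent replicates. RPS29 had 121, 163 and 113 CPM in T47D day 15 replicates 1, 2 and 3, and 103, 133 and 98.7 in those of MDA-MB-231, so replicate 2 was the highest in both lines. RPL10 had 323, 486 and 318 CPM in T47D and 631, 714 and 587 in MDA-MB-231, with the same order. RPL41, at 88.8 CPM in T47D replicate 2, beside 209 and 206, did not share the pattern: MDA-MB-231 had 108, 111 and 114. RPS29 was also the member with the highest deviation in MDA-MB-231 control replicate 1 (0.148) and the lowest in control replicate 3 (-0.193). The median absolute log2 deviation of the members was 0.133 in T47D replicate 2 and 0.0695 in MDA-MB-231 replicate 2, against 0.0184 to 0.0902 in the other 16 libraries. MDA-MB-231 day 15 replicate 3 had 0.0686, so replicate 2 did not stand apart by size in that line. Only this pair of libraries was correlated, so the likeness is not shown to be particular to those numbered 2. The numbers are not known to mark a shared culture, day or preparation, and the source of the likeness was not tested.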
